A study of Mus musculus with 4 samples.

Results

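Lrp4, Lrp5, Lrp6, Rspo2, Rspo3, Lgr4, Znrf3, Rnf43, Ryk and Ror2 are the Wnt co-receptors, the R-spondin module and the receptors other than Frizzleds that are described here. They were selected by gene symbol for their place in the pathway, with earlier results of these data known. All 10 were found among the 24346 rows of the expression table. Expression was measured by RNA-seq in mBMSCs, bone marrow-derived mesenchymal stem/progenitor cells taken from the femurs of C57BL/6 mice (C57BL/6J in the study's methods) aged 3 months and expanded as adherent cells. The control cells were transfected with a scramble control siRNA (siScr) and the depleted cells with an siRNA against ZBP1 (siZBP1), and RNA was collected 72 h later, with 2 samples in each group. All samples carry the wild-type genome and received an siRNA with the same lipid reagent, and which siRNA against ZBP1 was used for sequencing is not stated. Nothing states that the samples of a group came from separate mice or cultures, so the p-values measure only the spread between these samples, which may be technical.

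Canonical Wnt signaling begins when a Wnt protein bridges a Frizzled receptor and LRP5 or LRP6, whose phosphorylated tails draw in AXIN and spare β-catenin from destruction. R-spondins bind LGR receptors and remove the ubiquitin ligases ZNRF3 and RNF43, which otherwise clear Frizzleds from the cell surface. In bone, LRP5 and LRP6 carry the signal that drives osteoblasts, and LRP4 anchors sclerostin, the inhibitor made by osteocytes. RYK and ROR2 receive Wnts such as WNT5A without LRP5 or LRP6.

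Zbp1, the targeted gene, was expressed at 86.0 and 62.0 FPKM (read fragments scaled to transcript length and to library size) in the siScr samples. It was at 11.5 and 11.6 FPKM in the siZBP1 samples, a change of -2.56 on the scale of log2(FPKM + 1) with a standard error of 0.16 (limma adjusted p = 0.00322). Limma fits each gene and shares information on variance between genes. It was applied to the 11959 genes whose FPKM averaged 1 or more across the 4 samples, with p-values adjusted over all of them and called at 0.05. Read numbers are not given, and from the spacing of the lowest values the 10 genes described here rest on roughly 9 (Rspo3) to 2991 (Lrp6) fragments a sample. Macrophage genes were abundant beside the stromal genes in these cultures. Of 18 macrophage markers, 11 were higher and 0 lower in siZBP1 cells, all 18 were detected, and their summed level was 10621 and 11628 FPKM in siScr cells against 16329 and 15583 FPKM in siZBP1 cells. Of 10 stromal markers tested, 6 were lower and 0 higher. Beside both sets, 14.8% of all genes tested were lower and 13.5% higher. The sum of the 11 stromal markers in the list was 5702 and 4772 FPKM against 3273 and 3313 FPKM. Most of that sum was Col1a1, with means of 2793 and 1160 FPKM in siScr and siZBP1 cells, and Col1a2, with 1949 and 1820 FPKM. The largest part of the macrophage sum was Lyz2, with means of 3230 and 5636 FPKM. None of these stromal or macrophage markers was listed at 0 in every sample. The part of these shifts in the results below was not tested, and in bulk RNA fewer cells of a type and less RNA per cell cannot be told apart.

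In siScr cells Rspo2 and Ryk stood highest of the 10 genes, and in siZBP1 cells Lrp6 and Ryk did. Rspo2, Lrp4 and Ryk were lower in siZBP1 cells by 2.23 to 3.17-fold and passed the test, whereas Lrp5, Lrp6, Znrf3 and Rnf43 differed between the group means by less than the larger of the SDs of the groups. Of the 9 genes tested, 3 were called lower and 0 higher at an adjusted p under 0.05, beside 14.8% of all genes tested that were called lower and 13.5% that were called higher. At an unadjusted p under 0.05 the counts were also 3 and 0. Rspo3 had a mean of 0.591 FPKM over all samples and was not tested. By the ratio of the group means, 5 of the 10 genes were over 1.5-fold lower and 0 higher, beside 13.8% and 10.7% of the 16281 genes with a mean above 0 in both groups and 8.65% of genes tested that were lower by that much. Both siZBP1 samples lay below both siScr samples for 6 of the 10 genes and for 5 of the 9 tested, which holds for 33.7% of all genes tested, and 0 of the 10 were separate in the other direction, against 34.7%. The median change of the 9 genes was -0.21 on the log2 scale, and that of all genes tested was 0.0045. Lrp4, Rspo2, Rspo3, Ryk and Ror2 also stand in a list of Wnt genes that the study compiled from these samples for being lower, so their direction is not independent evidence.

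**Figure D1:**
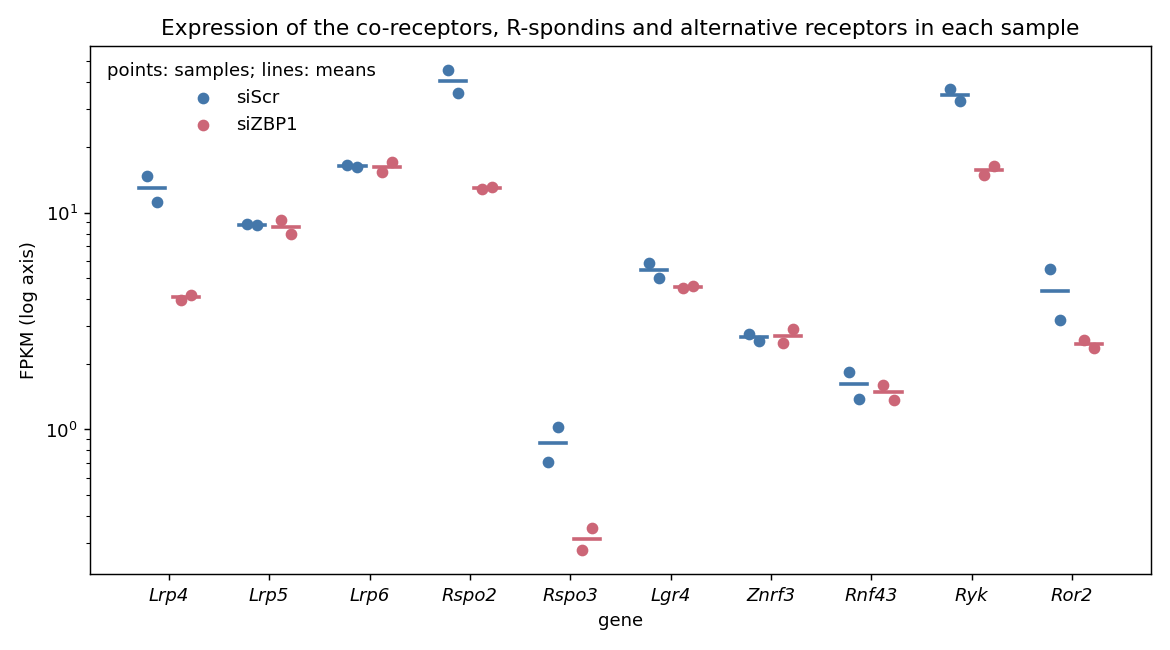
Expression of the 10 genes in each of the 4 samples, with FPKM on a log axis, points for samples and lines for group means. For Rspo2, Lrp4, Ryk and Rspo3 the siZBP1 points lie well below the siScr points, whereas those of Lrp5, Lrp6, Znrf3 and Rnf43 overlap.

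Among the co-receptors, Lrp4 fell and the canonical pair Lrp5 and Lrp6 did not differ detectably. Lrp4 encodes a large membrane protein of the LRP family that binds agrin, sclerostin and Dickkopf proteins, and is found in GRCm38 on chromosome 2, between 91457511 and 91513779 (plus strand). It was at 14.7 and 11.2 FPKM in the siScr samples and at 3.97 and 4.18 FPKM in the siZBP1 samples. The groups did not overlap, and the siScr samples differed by 1.31-fold from each other against 1.05-fold for the siZBP1 samples. The mean fell 3.17-fold, from 12.9 ± 2.47 to 4.08 ± 0.149 FPKM (SD, n = 2 each). Its change was -1.44 on the log2(FPKM + 1) scale, with a standard error of 0.14 and a 95% interval of -1.81 to -1.08 (limma adjusted p = 0.00585). Of all changes tested, 1.54% were lower than that of Lrp4.

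Lrp5, on chromosome 19 from 3584828 to 3686564 (minus strand), and Lrp6, on chromosome 6 from 134446476 to 134566965 (minus strand), encode the co-receptors of β-catenin signaling. Lrp5 was at 8.84 and 8.73 FPKM in siScr cells and at 9.27 and 7.94 FPKM in siZBP1 cells, so that the siZBP1 samples enclosed the siScr samples. Its change was -0.03 with a 95% interval of -0.27 to 0.21 (limma adjusted p = 0.830). Lrp6 was at 16.6 and 16.2 FPKM in siScr cells and at 15.3 and 17.1 FPKM in siZBP1 cells. Its change was -0.02 with a 95% interval of -0.21 to 0.17 (limma adjusted p = 0.871), and its sign turned positive after median scaling (0.01) and quantile normalization (0.0015). The intervals leave room for falls or rises of the order of their bounds, all smaller in size than the change of Lrp4.

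The make-up of the co-receptor mRNA shifted with the fall of Lrp4. Lrp4 made up 36.5% and 30.9% of the summed FPKM of Lrp4, Lrp5 and Lrp6 in the siScr samples and 13.9% and 14.3% in the siZBP1 samples. Lrp6 made up 41.4% and 45.0% in siScr cells and 53.7% and 58.6% in siZBP1 cells. Lrp5 and Lrp6 together stood at 25.2 ± 0.353 FPKM in siScr cells and 24.8 ± 0.330 FPKM in siZBP1 cells (SD, n = 2 each). These shares restate the values above and are not further evidence.

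Of the ligands that amplify Wnt signaling, Rspo2 had the highest mean of the 10 genes in siScr cells and the third highest in siZBP1 cells. It encodes a secreted R-spondin and lies on chromosome 15 from 43020794 to 43170826 (minus strand). Its expression was 45.4 and 35.5 FPKM in the siScr samples and 12.9 and 13.1 FPKM in the siZBP1 samples. The lowest siScr sample was well above the highest siZBP1 sample. The mean fell 3.11-fold, from 40.5 ± 6.98 to 13.0 ± 0.140 FPKM (SD, n = 2 each), a change of -1.56 with a standard error of 0.12 and a 95% interval of -1.88 to -1.23 (limma adjusted p = 0.00434). Rspo3, a related R-spondin on chromosome 10 from 29452416 to 29535867 (minus strand), was expressed at a far lower level, at 0.706 and 1.03 FPKM in siScr cells and 0.278 and 0.350 FPKM in siZBP1 cells. The groups did not overlap and the mean was 2.77-fold lower, but these values rest on roughly 31 and 62 fragments in the siScr samples and 9 and 20 in the siZBP1 samples. Without a filter on low values, Rspo3 had a change of -0.50 with a standard error of 0.11 (limma adjusted p = 0.0491). An annotated gene on the opposite strand, Gm48159, overlaps exons of Rspo3 and shares 11.6% of its windows of 50 bases. Reads from that shared part could be told apart only if strand was used, which is not stated. The other R-spondins were near the limit of detection, Rspo1 at 0.123 ± 0.0255 and 0.0893 ± 0.0148 FPKM and Rspo4 at 0.0343 ± 0.00957 and 0.0118 ± 0.0167 FPKM in siScr and siZBP1 cells (SD, n = 2 each).

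The genes that act on R-spondins and on Frizzled turnover changed less than Rspo2. Lgr4, on chromosome 2 from 109917647 to 110014257 (plus strand), encodes an R-spondin receptor with leucine-rich repeats. It was at 5.85 and 5.01 FPKM in siScr cells and at 4.51 and 4.57 FPKM in siZBP1 cells, so that the groups did not overlap. Its change of -0.21 did not pass the threshold, with a 95% interval of -0.47 to 0.05 (limma adjusted p = 0.180). The ratio of Rspo2 to Lgr4 was 7.77 and 7.10 in siScr cells and 2.86 in each siZBP1 sample. Lgr5, a related receptor and marker of intestinal stem cells, averaged 1.74 ± 0.283 FPKM in siScr cells and 1.57 ± 0.140 FPKM in siZBP1 cells (SD, n = 2 each), a change of -0.09 (limma adjusted p = 0.667). Lgr6 was not tested, at 0.354 ± 0.0499 and 0.434 ± 0.210 FPKM (SD, n = 2 each).

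Znrf3 and Rnf43 encode the membrane ubiquitin ligases that R-spondins neutralise, and both are on chromosome 11. Znrf3, from 5276324 to 5444847 (minus strand), was at 2.75 and 2.56 FPKM in siScr cells and at 2.51 and 2.91 FPKM in siZBP1 cells. The groups overlapped, and its change was 0.02 with a 95% interval of -0.27 to 0.31 (limma adjusted p = 0.914). Rnf43, from 87662722 to 87735539 (plus strand), was at 1.85 and 1.38 FPKM in siScr cells and at 1.60 and 1.36 FPKM in siZBP1 cells. These values overlapped too, with a change of -0.07 and a 95% interval of -0.46 to 0.32 (limma adjusted p = 0.760), and its sign turned positive after quantile normalization (0.02).

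Of the alternative receptors, Ryk fell and Ror2 was lower without passing the threshold. Ryk encodes an atypical receptor with a WIF domain and an inactive kinase domain, and lies on chromosome 9 from 102834917 to 102908305 (plus strand). It was at 37.0 and 32.7 FPKM in the siScr samples and at 14.9 and 16.4 FPKM in the siZBP1 samples, with no overlap between the groups. The mean fell 2.23-fold, from 34.8 ± 3.03 to 15.6 ± 1.02 FPKM (SD, n = 2 each), a change of -1.10 with a standard error of 0.08 and a 95% interval of -1.33 to -0.88 (limma adjusted p = 0.00399). Ror2 encodes a receptor tyrosine kinase that binds WNT5A, and lies on chromosome 13 from 53109312 to 53286124 (minus strand). It was at 5.49 and 3.21 FPKM in the siScr samples and at 2.59 and 2.38 FPKM in the siZBP1 samples. Both siZBP1 samples were below both siScr samples, but the siScr samples differed from each other by 1.71-fold. The mean was 1.75-fold lower, from 4.35 ± 1.61 to 2.48 ± 0.144 FPKM (SD, n = 2 each), and the change of -0.58 had a 95% interval of -1.18 to 0.01 (limma adjusted p = 0.124). Without siScr replicate 2, the lower of the pair, the change was -0.90 and passed the threshold (limma adjusted p = 0.0240), and without siScr replicate 1 it was -0.27 (adjusted p = 0.181).

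The promoters of Ryk and Ror2 are shown because both alternative receptors had lower means in siZBP1 cells. RefSeq windows matched 4 of the 10 genes by symbol (Lgr4, Ryk, Rnf43 and Ror2). Sequences are from RefSeq on GRCm38.p6, cover the 250 bases before its annotated start and read 5′ to 3′ on the strand of the gene, with CG pairs in capitals. Ryk spans chr9:102834670-102834919 on the plus strand and Ror2 spans chr13:53286125-53286374 on the minus strand.
Ryk: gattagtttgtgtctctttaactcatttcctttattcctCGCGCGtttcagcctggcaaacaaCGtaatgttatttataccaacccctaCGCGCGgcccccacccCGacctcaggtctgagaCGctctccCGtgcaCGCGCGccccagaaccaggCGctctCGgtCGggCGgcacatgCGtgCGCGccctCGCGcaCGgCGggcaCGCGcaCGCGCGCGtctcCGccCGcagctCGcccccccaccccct
Ror2: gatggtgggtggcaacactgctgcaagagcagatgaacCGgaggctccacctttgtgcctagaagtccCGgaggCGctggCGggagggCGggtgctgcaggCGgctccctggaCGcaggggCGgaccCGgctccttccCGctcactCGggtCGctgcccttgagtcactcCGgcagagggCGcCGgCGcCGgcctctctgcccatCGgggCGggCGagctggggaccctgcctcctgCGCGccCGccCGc
The Ryk window holds 33 CG pairs and 65.2% G and C, and the Ror2 window holds 24 CG pairs and 73.2% G and C, beside medians of 16 pairs and 60% over the 11492 windows of genes tested. The letters CTTTG followed by AA, AT, TA or TT, the core used for Wnt response elements, were searched on both strands. They occurred in 0 of the 5 windows of Ryk, Ror2, Lgr4 and Rnf43, in 10.4% of the windows of genes tested and in 14.8% of all 32851 windows. This says only that these letters are not in these windows.

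**Figure D2:**
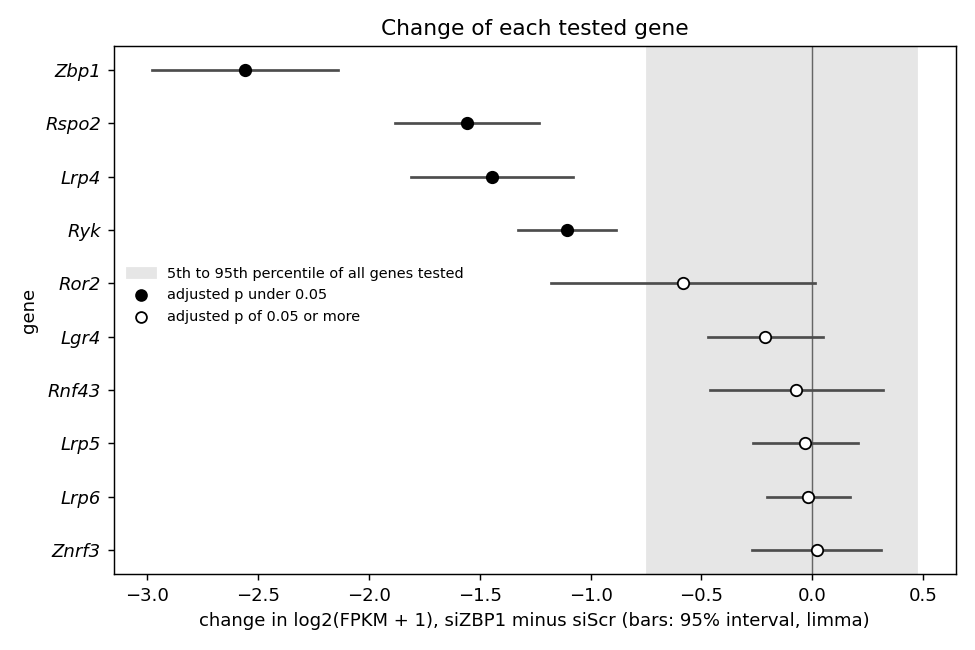
Change in log2(FPKM + 1) between siZBP1 and siScr cells for Zbp1 and the 9 genes tested, with limma's 95% interval as bars, filled points for an adjusted p under 0.05 and a grey band from the 5th to the 95th percentile of all genes tested (-0.75 to 0.47). Rspo2, Lrp4 and Ryk lie wholly outside the band, and the intervals of the other 6 genes include 0.

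Whether genes of similar role changed unequally was examined in 6 pairs, from the difference of log2(FPKM + 1) between the genes of a pair in each sample. With 2 samples against 2, a two-sided exact permutation test cannot give a p below 0.333, so the values are a description. Lrp4 minus Lrp5 was 0.67 and 0.32 in the siScr samples and -1.05 and -0.79 in the siZBP1 samples, a shift of -1.41 (exact permutation p = 0.333, adjusted p = 0.5). Against Lrp6 the shift of Lrp4 was -1.42 (exact permutation p = 0.333, adjusted p = 0.5). Between Lrp5 and Lrp6 it was -0.01 (exact permutation p = 1), with overlapping groups. Rspo2 shifted by -1.05 against Rspo3, where the low level of Rspo3 compresses its own change on this scale, since the ratio of both in FPKM was 64.3 and 34.5 in siScr cells and 46.5 and 37.4 in siZBP1 cells. Ryk shifted by -0.52 against Ror2 without overlap, but the ratio of both in FPKM was 6.73 and 10.2 in siScr cells and 5.77 and 6.86 in siZBP1 cells, which overlap. Znrf3 shifted by 0.09 against Rnf43 with overlapping groups (exact permutation p = 0.667, adjusted p = 0.8).

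Rspo2 went from the first to the third place in the order of the levels and Lrp4 from the fourth to the sixth. In siScr cells the order by mean FPKM was Rspo2, Ryk, Lrp6, Lrp4, Lrp5, Lgr4, Ror2, Znrf3, Rnf43 and Rspo3. In that order, Rspo2 and Ryk overlapped in their samples, as did Lgr4 and Ror2. In siZBP1 cells it was Lrp6, Ryk, Rspo2, Lrp5, Lgr4, Lrp4, Znrf3, Ror2, Rnf43 and Rspo3, with overlap between Lrp6 and Ryk and between Znrf3 and Ror2. The remaining neighbours in each order were separate in their samples.

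Among the ligands and receptors that work with the co-receptors, most changes were falls. Of 7 Frizzled receptors tested, 4 were lower and 1 was higher, beside 14.8% and 13.5% of all genes tested. Fzd5 fell by 0.77 and Fzd8 by 0.72 on the log2 scale, and Fzd6 rose by 0.80 (limma adjusted p = 0.0104, 0.00993 and 0.0105). Of 5 Wnt ligands tested, 4 were lower, among them Wnt10b, which favours osteoblasts over adipocytes, at 6.33 ± 1.80 and 1.45 ± 0.0298 FPKM (SD, n = 2 each), and Wnt4, with a change of -1.01. Wnt9a was higher, with a change of 1.00. The medians of these lists were -0.38 and -0.67, beside 0.0045 for all genes tested.

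The secreted and membrane inhibitors that meet LRP5, LRP6, Frizzleds or Wnts included 6 lower genes and 0 higher among the 7 tested. Of all genes tested, 14.8% were lower and 13.5% higher. Sfrp2, a decoy that resembles the Wnt-binding part of Frizzleds, fell from 18.1 ± 5.31 to 1.72 ± 0.654 FPKM, and the related Sfrp1 went from 7.55 ± 1.85 down to 2.16 ± 0.148 FPKM (SD, n = 2 each). Wif1, whose product shares the WIF domain of RYK and binds Wnts, fell from 5.24 ± 1.74 to 0.477 ± 0.355 FPKM (SD, n = 2 each). Sost, which encodes the sclerostin that LRP4 holds, was listed at 0 in all samples.

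Of 19 genes for the maturation and the intracellular signalosome of LRP5 and LRP6 that were tested, 3 were lower, 0 higher and 16 not called, beside 14.8% of all genes tested that were lower, with a median change of -0.02. Csnk1g1, a membrane-bound kinase that phosphorylates LRP6, had a change of -0.59 (limma adjusted p = 0.00916), and Wls, the carrier that brings Wnts to the cell surface, had a change of -0.20 (limma adjusted p = 0.0244, and 0.0690 without the variance trend). Apc, the scaffold of the destruction complex, had a change of -0.31 (limma adjusted p = 0.0404), and was not called after median scaling (adjusted p = 0.0543), without the variance trend (0.0543) or without the filter on low values (0.0618). Mesdc2, which encodes the chaperone that folds LRP5 and LRP6, had a change of -0.02 (limma adjusted p = 0.812). Of 8 feedback targets of β-catenin tested, 4 were lower and 0 higher, with Tcf7, Ccnd1 and Myc at changes of -1.26, -1.07 and -1.06. Axin2, a direct feedback inhibitor, was not called, with a change of -0.34 (limma adjusted p = 0.110). Apcdd1 at -0.55, Lgr5 at -0.09 and Nkd2 at 0.05 were not called either. Axin2, Apcdd1 and Lgr5 are each counted in another list as well. These lists were written with earlier results of these samples known. Fzd5, Fzd8, Wnt10b, Wnt4, Sfrp1, Sfrp2, Wif1, Csnk1g1, Tcf7, Ccnd1 and Myc are also in the study's list of lower Wnt genes. So are Axin2 and Apcdd1, whose mean FPKM was 1.51 and 1.70-fold lower. The study's methods state a 1.5-fold threshold, whereas limma on log2(FPKM + 1) did not call these 2 genes. The direction of all the genes in the study's list is not independent evidence.

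Other relatives moved in both directions. Among further LRP genes, Lrp3 was lower with a change of -0.76 (limma adjusted p = 0.0145), and Lrp10 and Lrp12 were higher with changes of 0.36 and 0.30 (limma adjusted p = 0.00884 and 0.0255). Of 8 further genes of alternative receptors and planar polarity tested, 3 were lower and 0 higher, beside 14.8% and 13.5% of all genes tested. The lower genes were Daam2, Prickle3 and Fat4, with changes of -0.68, -0.57 and -0.43. Fat4 was not called without the filter on low values (limma adjusted p = 0.0753), after quantile normalization (0.0692) or with a replicate block (0.0654). Daam2 was not called with a pseudocount of 0.1 (limma adjusted p = 0.0516) or after quantile normalization (0.0786). Ptk7, a pseudokinase co-receptor of that branch, was at 29.9 ± 4.21 and 22.7 ± 1.12 FPKM (SD, n = 2 each) and was not called (limma adjusted p = 0.0619), and Ror1, the relative of Ror2, was at 0.537 ± 0.0693 and 0.392 ± 0.0393 FPKM (SD, n = 2 each) and was not tested. Prickle2, with a change of 0.43, and Lrp8, with -0.49, did not pass the threshold.

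**Figure D3:**
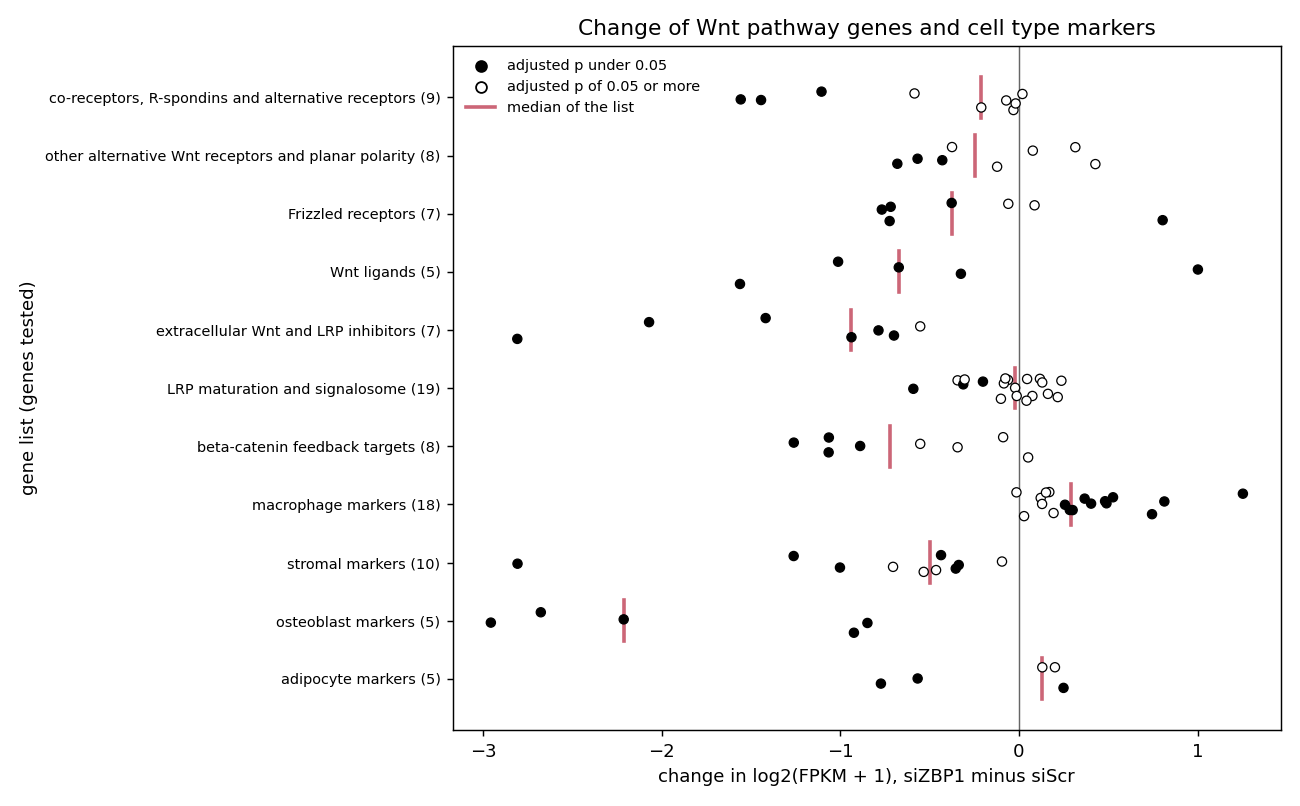
Change in log2(FPKM + 1) of each gene tested in lists of Wnt pathway genes and cell type markers, with filled points for a limma adjusted p under 0.05 and a line at the median of each list. The median is -0.21 for the co-receptors, R-spondins and alternative receptors, -0.94 for extracellular inhibitors, -0.02 for LRP maturation and signalosome genes, 0.29 for macrophage markers and -0.50 for stromal markers.

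Stromal genes did not move alike. Pdgfrb, a receptor of stromal cells, was at 73.3% of its siScr mean in siZBP1 cells, and Col1a2 at 93.4%. Prrx1, a mesenchymal transcription factor, was at 48.7% and Cxcl12, a niche chemokine of marrow stroma, at 12.8%. Rspo2 was at 32.1%, Lrp4 at 31.6%, Ryk at 44.9% and Ror2 at 57.2% of the siScr mean, and Lrp5, Lrp6 and Znrf3 at 97.9%, 98.8% and 102.0%. Of the macrophage markers, Mrc1, Lyz2 and C1qa had the largest changes, with Mrc1 at 2.39 times, Lyz2 at 1.74 times and C1qa at 1.68 times the siScr mean, with Lyz2 not called after quantile normalization (limma adjusted p = 0.0859), whereas Adgre1 and Mpeg1 had changes of 0.12 and -0.01 and were not called.

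The calls of Rspo2, Lrp4 and Ryk needed both siZBP1 samples. With either siScr sample left out, each gene passed the threshold. Without siZBP1 replicate 1, the limma adjusted p was 0.0684 for Rspo2, 0.0782 for Lrp4 and 0.0637 for Ryk, and without siZBP1 replicate 2 it was 0.0580, 0.0659 and 0.0518. Over all samples left out in turn, the change stayed between -1.73 and -1.38 for Rspo2, between -1.63 and -1.26 for Lrp4 and between -1.19 and -1.02 for Ryk. Zbp1 itself behaved likewise, with an adjusted p of 0.0618 and 0.0510 without either siZBP1 sample.

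**Figure D4:**
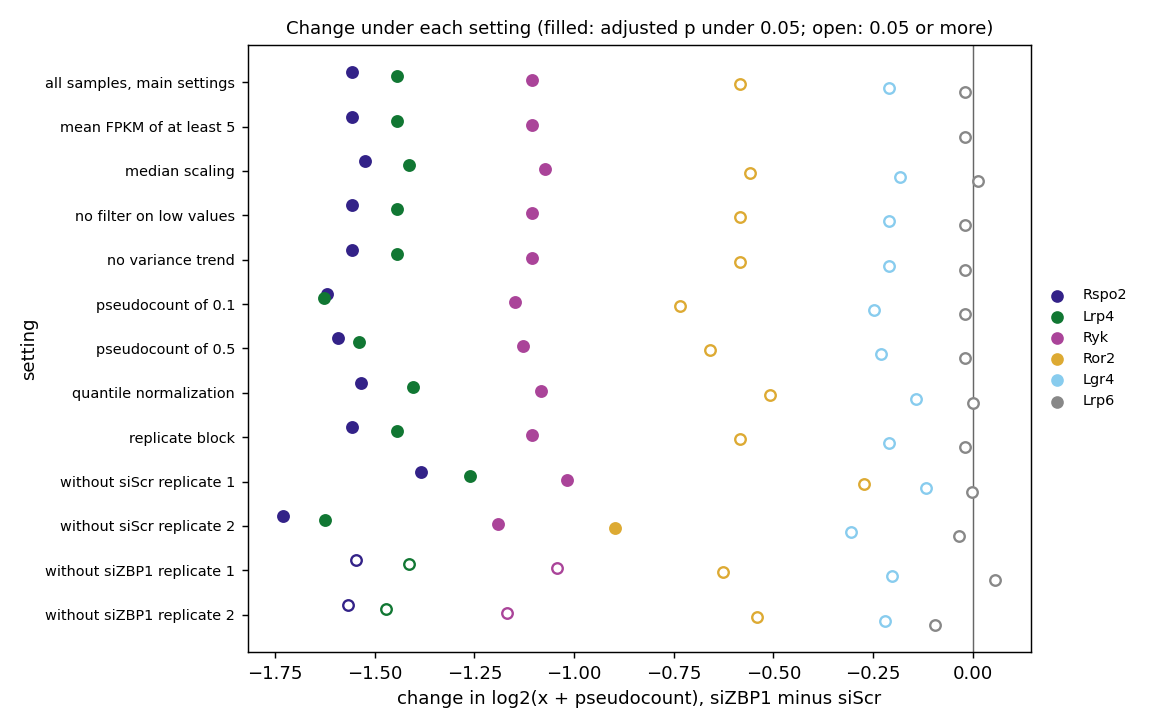
Change of Rspo2, Lrp4, Ryk, Ror2, Lgr4 and Lrp6 between siZBP1 and siScr cells under each setting, on the scale of log2(FPKM + pseudocount), with filled points for a limma adjusted p under 0.05. Rspo2, Lrp4 and Ryk keep a change below -1 in every setting shown and turn to open points only without a siZBP1 sample, and Ror2 is filled only without siScr replicate 2.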

How the data were processed

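RNA-seq of 2 siScr and 2 siZBP1 samples was analysed from 1 table of deposited FPKM values. Per the methods, the authors mapped reads of TruSeq libraries with TopHat to mm10 and extracted FPKM with HTSeq, whereas the submitters' processing notes name TopHat and Cufflinks. Annotation, strand and filters are not given in the sources used here. The authors' group means equal the means of the replicates and were not used.

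FPKM are not counts, so log2(FPKM + 1) was modelled in limma 3.58.1 (R 4.3.3), letting the variance follow the level, over the 11959 genes whose FPKM averaged 1 or more. P-values are two-sided and Benjamini-Hochberg adjusted over these genes, and a call needs an adjusted p under 0.05. A change on this scale understates that of low genes. Pairs of genes were compared by exact permutation. Depth was estimated from the spacing of low values and is rough. The 12 alternatives were pseudocounts of 0.1 and 0.5, no filter, a minimum mean of 5, quantile normalization, median scaling, no variance trend, a replicate block and each of the 4 samples left out.

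The genes and lists were chosen with earlier results of these data known. Beside the 10 genes and Zbp1, up to 3 called genes with the largest change were named in each list of Wnt pathway genes and of macrophage, stromal, osteoblast, adipocyte, endothelial and other haematopoietic markers. Other genes of the lists that are named, such as Axin2, Apcdd1, Lgr5, Nkd2, Ptk7, Ror1, Lrp8, Lrp12, Prickle2, Mesdc2, Pdgfrb, Col1a2, Adgre1 and Mpeg1, were chosen after their values were seen. Some genes of the lists are not reported here. Coordinates are those of GENCODE on GRCm38, the assembly also called mm10.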

Additional observations from a re-analysis of the deposited data

How the results depend on the processing

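Rspo2, Lrp4 and Ryk were called lower, and no other gene of the 10 was called, under the 8 alternatives that used all samples, except that Rspo3 was added without a filter. With a mean FPKM of at least 5, only 5 of the 10 genes were tested, so the others could not be called there. Rspo3 was tested only without a filter. With 1 sample left out, 0 to 4 of the 10 genes were called lower, 48 to 1467 of all genes lower (1766 with all samples) and 22 to 1248 higher (1618). The lowest counts came without siZBP1 replicate 1 (48 and 22) and replicate 2 (113 and 32). There 0 of the 10 genes were called by limma, and 3 had an unadjusted p under 0.05. Without siScr replicate 1 the counts were 938 and 713. The change of Zbp1 ranged from -2.79 to -2.33. With 1 group reduced to 1 sample, its spread is assumed to be that of the other group.

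Signs near 0 turned. Lrp6 was at 0.013 after median scaling and 0.0015 after quantile normalization, and Rnf43 at 0.023 after the latter. With 1 sample left out, Lrp5 ranged from -0.13 to 0.069, Lrp6 from -0.094 to 0.056, Znrf3 from -0.058 to 0.097 and Rnf43 from -0.20 to 0.058, the difference of Lrp5 and Lrp6 from -0.19 to 0.16 and that of Znrf3 and Rnf43 from -0.057 to 0.24. The cause was not tested.

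With a mean FPKM of at least 5, fewer genes were tested, and the lower calls were 1 in place of 4 for Wnt ligands, 3 in place of 6 for inhibitors and 1 in place of 3 for alternative receptors and planar polarity. Quantile normalization also left 1 in place of 3 for alternative receptors and planar polarity. Without either siZBP1 sample, each list kept at most 1 call in a direction. Without siScr replicate 1 the lower calls were 1 of 4 for Wnt ligands, 1 of 3 for alternative receptors and planar polarity and 1 of 3 for maturation and signalosome genes. With all samples, the other list counts that moved past 1.5 times did so by 1.

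Replicate numbers are shared by the groups, but nothing ties equal numbers together. The replicate differences of the groups correlated at r = -0.063 over 11959 genes. With a replicate block, 1654 genes were lower and 1465 higher, and the block changed no call among the 10 genes, while Fat4 lost its call (Ror2 limma adjusted p = 0.0635). Depth limits Rspo3 and Rnf43 most, at roughly 9 to 62 and 72 to 117 fragments a sample.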

Other observations

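Of 7 osteoblast genes, 5 were tested and all 5 were lower, whereas 14.8% of all genes tested were lower and 13.5% higher. The study reported lower Runx2 and Sp7 in these samples, and osteoblast differentiation among the terms of its lower genes. The direction of the osteoblast genes is therefore not independent evidence. Alpl, the alkaline phosphatase of mineralizing cells, changed by -2.96, Sp7, an osteoblast transcription factor, by -2.68 and Ibsp, a bone matrix sialoprotein, by -2.21 on the log2 scale (limma adjusted p = 0.00388, 0.00401 and 0.00221). Of 5 adipocyte markers tested, 2 were lower (Cd36 at -0.77 and Pparg at -0.57) and 1 higher (Lpl at 0.25). Lpl was not called without the filter on low values or without the variance trend. Plin1 and Adipoq, the remaining adipocyte markers of the list, were not tested. Plin1 was listed at 0 in all samples, and Adipoq averaged under 1 FPKM. Macrophage genes were abundant in these cultures, and which cells the RNA of the 5 tested genes came from was not tested. Endothelial markers summed to 4.60 to 5.53 FPKM a sample, with 1 of 6 tested and 0 called. Other haematopoietic markers summed to 0.721 to 4.80 FPKM, with 1 of 6 in the table tested and 0 called at either an adjusted or an unadjusted limit.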
